A study of Mus musculus with 8 samples.

Results

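A set of 10 genes that make, trim or release liver glycogen was followed in cultured mouse hepatocytes: Gys2, Pygl, Ppp1r3b, Ppp1r3c, Ppp1r3g, Gbe1, Ugp2, Phka2, Phkg2 and Gsk3b. They were chosen by name, as genes of glycogen synthesis and breakdown, among the 23521 probe sets that carry 1 gene symbol. Ppp1r3b had more than 1 probe set, and the brightest on average was used. All 10 had a probe set, and 9 were among the 13845 genes that passed a filter on low signal and were tested. Ppp1r3g did not pass it.

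Primary hepatocytes of male C57Bl6J mice were treated for 6 h with 100 nM glucagon and 2 µM GW4064 together, with glucagon alone, with GW4064 alone, or with the solvent DMSO. Glucagon is the fasting hormone that acts through cyclic AMP, and the compound GW4064 activates the bile acid receptor FXR. Every culture, the DMSO cultures included, was kept in low-glucose medium that held 100 nM dexamethasone, a glucocorticoid. RNA was measured on Affymetrix MoGene 2.0 ST arrays, 2 per treatment and 8 in all, 1 from each of 2 experiments. An experiment used pooled cells of 3 mice and holds 1 array of each treatment, so the 2 arrays of a treatment come from 2 pools. Signals are on the log2 scale, on which a difference of 1 is a factor of 2, and they do not compare 1 gene with another.

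Glycogen is built from UDP-glucose, which Ugp2 makes and glycogen synthase (Gys2 in liver) adds to the chain, while the branching enzyme Gbe1 sets the branch points. Glycogen phosphorylase (Pygl in liver) removes glucose again, and phosphorylase kinase, of which Phka2 and Phkg2 encode the liver regulatory and catalytic subunits, turns it on when glucagon raises cyclic AMP. The Ppp1r3 proteins bring protein phosphatase 1 to glycogen, where it activates the synthase and silences the phosphorylase, and Gsk3b is a kinase that inhibits the synthase. In liver this switch is best known as a change in the phosphorylation of enzymes already present, which an RNA measurement does not see.

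One array stood apart from the others. Probe sets of olfactory and vomeronasal receptors, 1405 in number and dim here, had a median of 3.25 on the GW4064 array of experiment 2 and of 2.95 to 2.98 on the other 7. For some members whose call or sign depends on it, values without it are given too. Hepatocyte markers were bright on every array, and 9 of the 10 listed were tested (all but Tf). Pck1, a gene of gluconeogenesis that glucagon induces, was 35.5-fold higher on the 4 arrays with glucagon than on the 4 without it (adjusted p = 0.000571 by limma).

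The main question for these genes was whether glucagon, averaged over the cultures with and without GW4064, changed them (4 arrays with glucagon against 4 without). The largest differences were those of the liver synthase, 2 phosphatase-targeting subunits and the enzyme of UDP-glucose supply. Gys2, Ppp1r3b and Ppp1r3c were about 1.5-fold higher with glucagon, Ugp2 was 1.31-fold higher, and Pygl 1.2-fold. Gbe1, Phka2, Phkg2 and Gsk3b lay between 0.957-fold and 1.07-fold. Once the experiment entered the model as a block, which removes any constant offset of a cell pool, Gys2, Ppp1r3b and Ppp1r3c rose at an adjusted p below 0.05 by limma. With the experiment as a random block, 1 correlation is estimated for all genes together and not for each gene. In that limma fit none of the 3 passed (adjusted p = 0.42 for Gys2, 0.222 for Ppp1r3b and 0.0601 for Ppp1r3c), while 444 of all genes did. With the fixed block, that is 3 of 9 members, all upward, where 2.67% of all genes tested were called higher and 5.76% were called in either direction. In the model without the block none of the 9 passed, against 1.32% of all genes. In that model 1 member, Ppp1r3c, had an unadjusted p under 0.05, and the share of all genes at that cutoff was not counted. The median difference of the 9 was 0.26, and that of all genes 0.00.

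**Figure D1:**
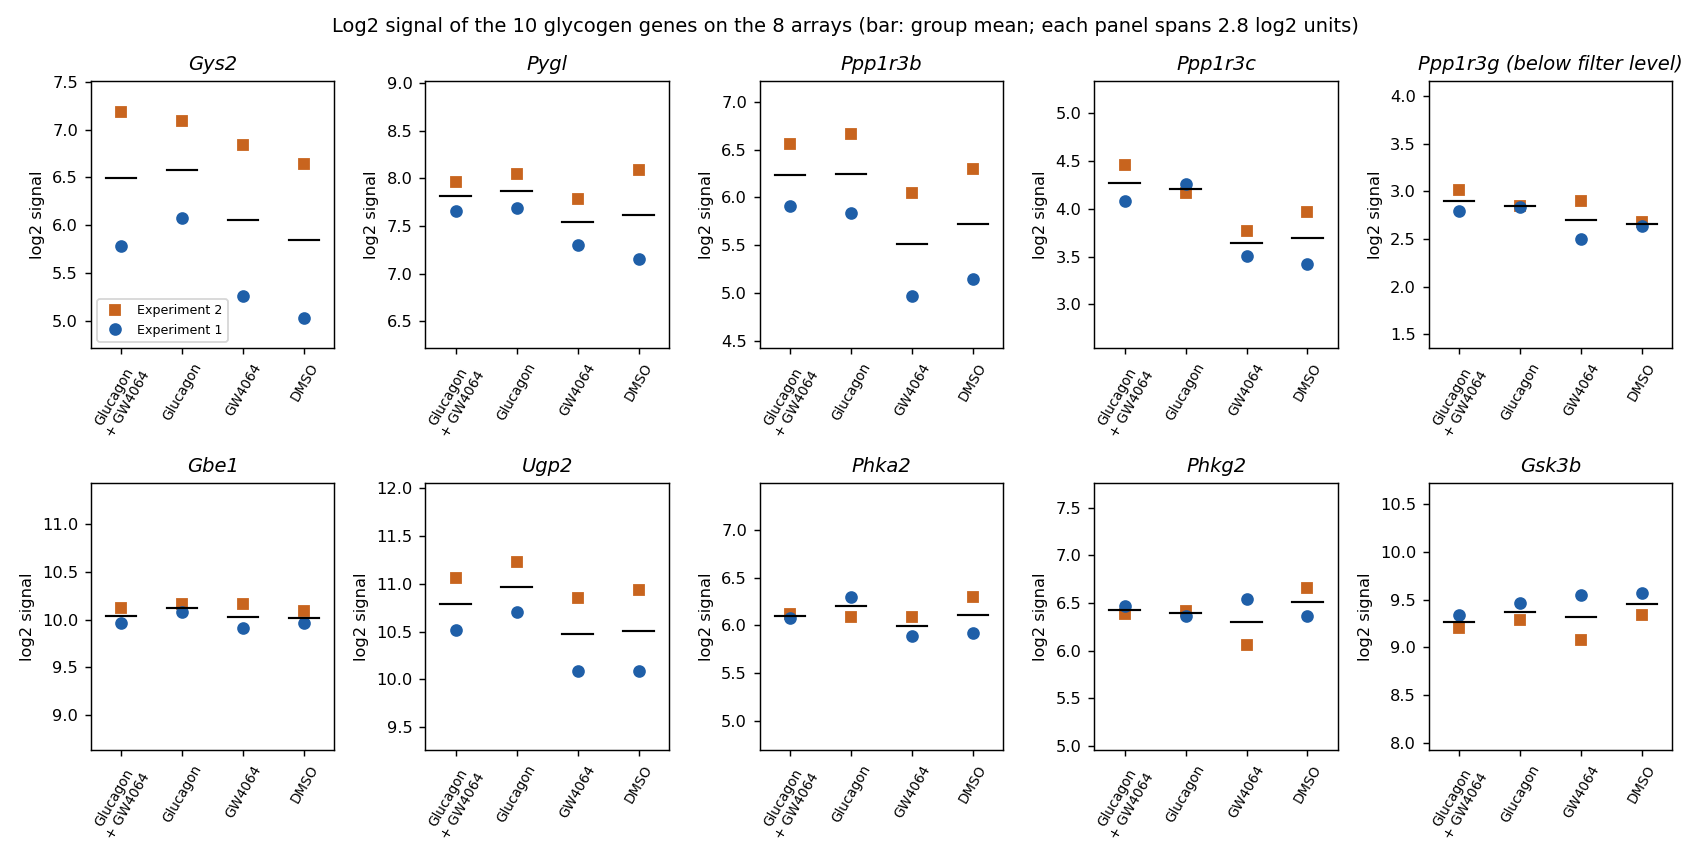
Log2 signal (vertical axis) of each of the 10 genes under the 4 treatments (horizontal axis), with experiment 2 as orange squares, experiment 1 as blue circles and the mean of the 2 arrays as a bar. Each panel spans the same range of log2 units. Gys2, Ppp1r3b and Ugp2 are higher in experiment 2 at every treatment and, within each experiment, higher with glucagon than without it.

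Gys2 encodes the liver glycogen synthase (probe set 17472497). Its signal was 5.78 in experiment 1 and 7.19 in experiment 2 with glucagon and GW4064, and 6.07 and 7.09 with glucagon. With GW4064 it was 5.26 and 6.84, and with DMSO 5.03 and 6.64. Within each experiment both arrays with glucagon were above both without it, but across the experiments the groups overlapped, since the DMSO array of experiment 2 exceeded both glucagon arrays of experiment 1. The difference was 0.59 (1.51-fold, 95% interval 1.24 to 1.82 with the block; SE 0.12 and adjusted p = 0.0387). Without the block the SE was 0.54 and the adjusted p 0.67.

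Ppp1r3b encodes the phosphatase-targeting subunit known as GL, the main one of liver (probe set 17500543). Its signal was 5.91 and 6.56 in experiments 1 and 2 with both agents and 5.84 and 6.67 with glucagon, against 4.97 and 6.05 with GW4064 and 5.14 and 6.30 with DMSO. Again the arrays with glucagon were the higher ones in both experiments, and the groups overlapped across experiments. The difference was 0.63 (1.55-fold, interval 1.30 to 1.85; SE 0.11, adjusted p = 0.0266 with the block, and SE 0.37, adjusted p = 0.493 without it). A second, dimmer probe set of the gene (17500548) did not follow the first. This probe set read 3.93 ± 0.19 with glucagon and 3.76 ± 0.39 without (SD, n = 4). Its difference between glucagon and DMSO was -0.04 in experiment 2 and 0.53 in experiment 1. Between both agents and GW4064 it was -0.08 and 0.27. With the mean of the 2 probe sets in place of the brighter one, the difference of Ppp1r3b was 0.40 and the blocked call was lost (adjusted p = 0.0875).

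Ppp1r3c encodes a second targeting subunit, also called PTG, which binds glycogen synthase and phosphorylase as well as the phosphatase (probe set 17364208). It was the only member whose 4 arrays with glucagon all lay above the 4 without, a pattern that 6.07% of all genes tested had in this direction. Its signal was 4.08 and 4.46 in experiments 1 and 2 with both agents and 4.26 and 4.17 with glucagon, against 3.51 and 3.77 with GW4064 and 3.42 and 3.97 with DMSO. The difference was 0.57 (1.49-fold, interval 1.23 to 1.80; SE 0.11, adjusted p = 0.0402 with the block, and SE 0.15, adjusted p = 0.153 without it). Its signal without glucagon lay not far above the filter level, which is 3.13 to 3.27 over the arrays. The blocked call was lost by a narrow margin when each array was centred on its median (adjusted p = 0.0526).

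Ppp1r3g, another targeting subunit, which in mouse liver is known to vary with feeding, gave no usable value. Its signal ran from 2.50 to 3.01, below the filter level on all 8 arrays. It is left out of every count of tested members.

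Ugp2, the enzyme that makes UDP-glucose, is next in the order of differences (probe set 17260916). It had a signal of 10.52 and 11.06 in experiments 1 and 2 with both agents and 10.71 and 11.23 with glucagon, against 10.09 and 10.85 with GW4064 and 10.09 and 10.94 with DMSO. Within each experiment the arrays with glucagon were the higher ones, as for Gys2 and both Ppp1r3 genes. In all, 4 of the 9 tested members had this order in both experiments, which 10.6% of all genes had in this direction. The difference of Ugp2 was 0.39 (interval 1.13 to 1.52-fold) and did not pass over all 8 arrays, with an adjusted p of 0.0594 with the block and 0.569 without it. Without the GW4064 array that stood apart it was 0.42 and passed with the block (adjusted p = 0.0443).

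Pygl, the liver phosphorylase (probe set 17281721), read 7.66 and 7.96 with both agents and 7.69 and 8.05 with glucagon in experiments 1 and 2. With GW4064 it read 7.30 and 7.78, and with DMSO 7.15 and 8.09. The DMSO array of experiment 2 was the highest of the 8, so the order seen in experiment 1 was not that of experiment 2. The difference was 0.26 (interval 0.982 to 1.46-fold) and did not pass (adjusted p = 0.266 with the block and 0.653 without).

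Promoter windows are shown for Ppp1r3c and for the phosphorylase gene Pygl, since cyclic AMP acts on many genes through a short promoter element. RefSeq windows of GRCm38.p6, from 250 bases before to 50 after a start, were given for 8 of the 10 members (9 windows, 2 of them for Ugp2). Gys2 and Ppp1r3b had none, so the search does not cover them. Both strands were searched for the cyclic AMP element TGACGTCA, for its core TGACG (which the full element contains), for the glucocorticoid element (AGAACA and its inverted repeat, 3 bases apart) and for the FXR element (AGGTCA and its inverted repeat, 1 base apart). None of the 9 windows held the full cyclic AMP element, which 1.79% of the 32851 windows in the table hold, and 2 held the core, which 20.8% hold. The 2 were Pygl, on the reverse strand 44 to 40 bases before the start (CGTCA as printed), and Ppp1r3g, on the forward strand 40 to 36 bases before it. No window of a member held the glucocorticoid or the FXR element, and 0.00913% of all windows hold each. The 250 bases before the start are printed 5′ to 3′ on the gene's strand, with the core in capitals, which the window of Ppp1r3c does not hold. They lie at chr19:36736605-36736854 (minus strand) for Ppp1r3c and at chr12:70227684-70227933 (minus strand) for Pygl. A match is only a run of letters, and its absence says only that these letters are not in the window.
Ppp1r3c: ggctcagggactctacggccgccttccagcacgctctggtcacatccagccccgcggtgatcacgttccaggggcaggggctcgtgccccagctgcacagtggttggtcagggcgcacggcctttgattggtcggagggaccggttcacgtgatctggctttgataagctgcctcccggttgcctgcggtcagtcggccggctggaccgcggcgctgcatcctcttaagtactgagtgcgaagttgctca
Pygl: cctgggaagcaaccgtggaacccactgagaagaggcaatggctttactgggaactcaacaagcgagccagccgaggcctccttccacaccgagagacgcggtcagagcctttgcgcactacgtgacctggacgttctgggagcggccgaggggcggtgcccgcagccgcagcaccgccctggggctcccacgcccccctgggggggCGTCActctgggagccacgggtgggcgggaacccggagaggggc

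Gbe1, the branching enzyme, hardly varied, with signals of 9.91 to 10.16 on the 8 arrays and a difference of 0.05 (interval 0.914 to 1.17-fold). Phka2, the regulatory subunit of phosphorylase kinase, differed by 0.10 (0.890 to 1.29-fold), and its glucagon minus DMSO difference had opposite signs, -0.21 in experiment 2 and 0.39 in experiment 1. Phkg2, the catalytic subunit, averaged 6.41 ± 0.05 with glucagon and 6.41 ± 0.26 without (SD, n = 4; 0.805 to 1.25-fold). Its lowest value, 6.06, is that of the GW4064 array that stood apart. Over 31 settings of the fit, its glucagon difference ran from -0.14 to 0.14. Gsk3b differed by -0.06 (0.828 to 1.11-fold). These intervals, from the model with the block, hold the value of no change, and they reach at most 1.29-fold.

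**Figure D2:**
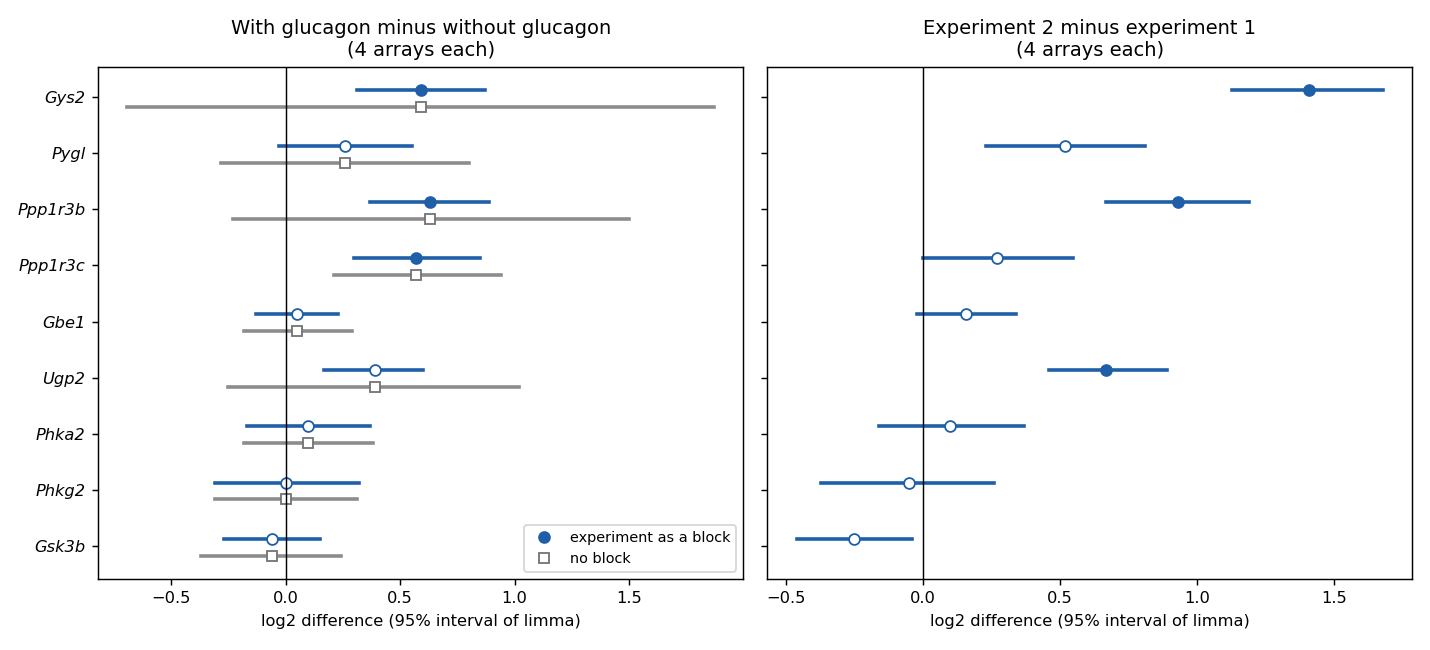
Log2 differences (horizontal axis) of the 9 tested genes with 95% intervals. Left, with glucagon minus without it, in the model with the experiment as a block (blue) and without (grey). Right, experiment 2 minus experiment 1. Filled symbols have an adjusted p below 0.05. With the block, 3 genes are filled on each side, and without it none is filled.

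The number of blocked calls changed with the arrays used, for the members and for all genes. With 1 array left out at a time, 0 members passed in 5 of the 8 cases, namely without either DMSO array, without either array of the combined treatment, or without the glucagon array of experiment 1. In those cases 113 to 311 of all genes were called, against 797 with all 8 arrays. Without the glucagon array of experiment 2, 2 members passed (Gys2 and Ppp1r3c), with 284 of all genes. All 3 passed without the GW4064 array of experiment 1, with 2379 of all genes, and Ugp2 passed too without that of experiment 2, with 1454. The difference of Gys2 kept its sign in every such fit with the block (0.46 to 0.72), as did those of Ppp1r3b (0.54 to 0.72), Ppp1r3c (0.45 to 0.69) and Ugp2 (0.33 to 0.45).

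The effect of glucagon was also compared separately without and with GW4064, in comparisons that share no arrays. Without GW4064 (glucagon against DMSO), Gys2 differed by 0.75, Ppp1r3b by 0.54, Ppp1r3c by 0.52, Ugp2 by 0.45 and Pygl by 0.26. Without the DMSO array of experiment 1 and without the block, these were -0.06 for Gys2, -0.05 for Ppp1r3b, 0.25 for Ppp1r3c, 0.03 for Ugp2 and -0.21 for Pygl. That fit sets glucagon arrays of both pools against the DMSO array of the other pool alone. The offset between the pools therefore enters its differences, which are not read as the effect of glucagon alone. With GW4064 present (both agents against GW4064), the same genes differed by 0.43, 0.72, 0.63, 0.32 and 0.27. None of the 9 members passed in either comparison, with limma's smallest adjusted p at 0.117 and 0.0963 with the block, and 1 had an unadjusted p under 0.05 without the block and 4 with it in each. Of all genes, 0.116% were called for glucagon against DMSO and 0.166% for both agents against GW4064, and with the block 0.925% and 1.06%. For both agents against DMSO, 0 members passed either (0.123% of all genes, and 0.737% with the block), 1 member had an unadjusted p under 0.05 without the block and 3 with it, and the largest difference was that of Gys2, 0.65. That comparison shares its DMSO arrays and its combined arrays with the other two. The shares of all genes given here are at the adjusted threshold. The share of all genes with an unadjusted p under 0.05 was not counted.

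**Figure D3:**
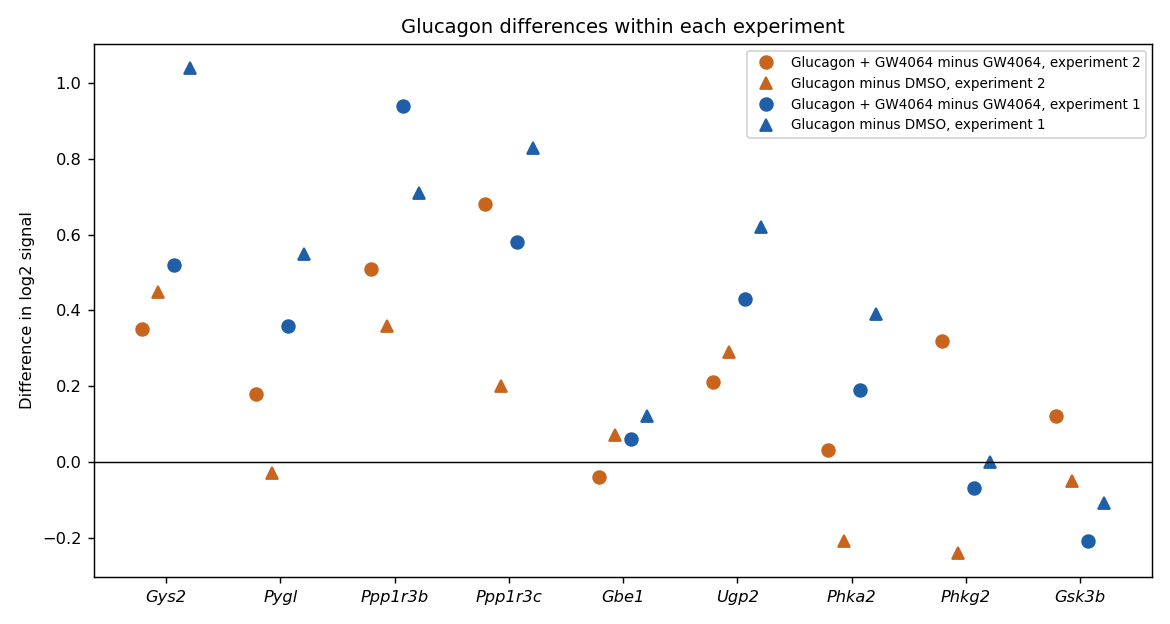
Difference in log2 signal (vertical axis) between matched arrays of the same experiment for the 9 tested genes (horizontal axis). Circles show glucagon with GW4064 minus GW4064, triangles glucagon minus DMSO, in orange for experiment 2 and in blue for experiment 1. All 4 differences of Gys2, Ppp1r3b, Ppp1r3c and Ugp2 are above 0.

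The glucagon difference was also set side by side between the experiments. The mean difference with glucagon was 0.40 in experiment 2 and 0.78 in experiment 1 for Gys2, 0.44 and 0.83 for Ppp1r3b, and 0.07 and 0.45 for Pygl. It was smaller in experiment 2 in 7 of the 9 members, the exceptions being Phkg2 and Gsk3b. This comparison was chosen after the values were seen. In a limma model with an experiment by glucagon term, which leaves 2 residual degrees of freedom, 0 members passed (smallest adjusted p = 0.49, and 1 with an unadjusted p under 0.05), as did 0% of all genes. The share of all genes at that unadjusted cutoff was not counted, nor was the share with a smaller difference in experiment 2.

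GW4064 moved none of these genes by the test. Averaged over the cultures with and without glucagon (4 arrays with GW4064 against 4 without), the 9 differences lay between -0.12 and 0.06 with a median of -0.08, against -0.02 for all genes. Gys2 differed by 0.06 (interval of the difference -0.22 to 0.34 with the block), Ppp1r3b by -0.12 (-0.37 to 0.14), Ppp1r3c by 0.00 (-0.27 to 0.28), Ugp2 by -0.11 (-0.32 to 0.11) and Pygl by -0.07 (-0.36 to 0.22). No member passed by limma with or without the block or had an unadjusted p under 0.05, and 0% of all genes were called. The same held for GW4064 against DMSO and for both agents against glucagon, at 0% of all genes each. The test of whether GW4064 altered the glucagon difference (the interaction) gave values from -0.31 for Gys2 to 0.25 for Phkg2, none past the test, with 0% of all genes called. The intervals of the interaction were wide, for Gys2 -0.87 to 0.24 with the block and -2.87 to 2.25 without it. With the block and without the GW4064 array that stood apart, 0 members passed in these 4 comparisons, while 3 of all genes passed for GW4064 averaged over glucagon and 0 in the other 3. In that fit the interaction was -0.20 for Gys2 and -0.04 for Phkg2, and the averaged GW4064 difference of Phkg2 was 0.06, against -0.08 with all 8 arrays. Without the other GW4064 array, GW4064 against DMSO sets only the array that stood apart against DMSO arrays of both pools. The calls of that fit are not read as an effect of GW4064.

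The largest differences in these genes lay between the cell pools. Gys2 was 2.65-fold higher in experiment 2 (interval 2.19 to 3.22), with a mean signal of 6.94 in experiment 2 and 5.54 in experiment 1 (log2 difference 1.41, SE 0.12, limma adjusted p = 0.00505). Ppp1r3b was 1.91-fold higher (0.93, SE 0.11, adjusted p = 0.012) and Ugp2 1.59-fold higher (0.67, SE 0.09, adjusted p = 0.0146). These 3 of 9 members passed, where 2.64% of all genes were called higher in experiment 2 and 5.16% were called in either direction. Pygl was 1.43-fold higher (0.52, SE 0.12) and did not pass (adjusted p = 0.0622). Ppp1r3c (0.27), Gbe1 (0.16) and Phka2 (0.10) had smaller positive values, and Phkg2 (-0.05) and Gsk3b (-0.25) negative ones.

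For Gys2, Pygl, Ppp1r3b, Gbe1 and Ugp2 all 4 arrays of experiment 2 lay above all 4 of experiment 1, an order that 6.12% of all genes had in this direction. By value, the difference between the pools exceeded the glucagon difference for Gys2, Ppp1r3b, Ugp2 and Pygl and was below it for Ppp1r3c, which was not tested. Each experiment is read here as 1 pool of cells, so this test describes these 2 pools over 4 treatments and not a condition. For this difference, leaving out either array of a treatment gives the same fit, since the array left in then carries no information on it. With all arrays 715 of all genes passed. Without the glucagon array of either experiment 129 did, and without the combined array of either 111 did. In those fits Gys2 and Ppp1r3b passed and Ugp2 did not. Without either DMSO array 26 of all genes and 0 members passed, with adjusted p-values of 0.053 for Gys2, 0.0786 for Ppp1r3b and 0.0905 for Ugp2.

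Markers of other liver cells differed between the pools as well. Signals of the 6 endothelial markers, put back on the linear scale and summed, were 155 to 175 in experiment 2 and 256 to 287 in experiment 1, and those of the 6 stellate cell markers 141 to 148 and 94.0 to 104. Hepatocyte markers summed to 27600 to 30600 in experiment 2 and 24600 to 29400 in experiment 1, and Kupffer cell and macrophage markers to 62.8 to 72.6 and 60.1 to 65.0. With the block, the stellate markers Dcn and Reln, the macrophage marker Marco and the hepatocyte marker Asgr1 were higher in experiment 2 and the endothelial marker Lyve1 was lower. The endothelial marker Clec4g, the Kupffer cell marker Cd5l and the stellate cell markers Lrat, Des and Col1a1 were below the filter. In bulk RNA, fewer cells of a type and less RNA per cell cannot be told apart, and the part of these shifts in the glycogen genes was not tested. Between the cultures with and without glucagon, the ranges overlapped for the endothelial list (159 to 264 with glucagon, 155 to 287 without), the stellate list (97.7 to 147 and 94.0 to 148), the Kupffer list (63.0 to 72.6 and 60.1 to 70.2) and the hepatocyte list (28100 to 30600 and 24600 to 30100, with 2 markers called higher with the block). Those of the cholangiocyte list did not (72.5 to 90.8 with glucagon and 108 to 268 without), with 3 of its 5 markers tested, Krt7 below the filter, Spp1 without a probe set of its own, and 0 markers past limma's test with the block. Its part in the glycogen genes was not tested. Each of these glucagon ranges holds arrays of both experiments. The endothelial and stellate sums were apart between the experiments, so their ranges with and without glucagon had to overlap. The lists were not compared by glucagon within an experiment.

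Around these 10 genes lie others of the same pathway, of which 39 symbols were listed. Of these 25 were tested, 5 were below the filter and 9 had no probe set carrying that symbol alone. Gyg1 and G6pc1, among them, are other names of genes tested as Gyg and G6pc. With glucagon (averaged over GW4064), 4 rose and 2 fell with the block, and 1, G6pc, rose without it. Of all 13845 genes, 370 rose and 427 fell with the block, and 113 rose and 70 fell without it. The median of the 25 was 0.14, and that of all genes 0.00. G6pc encodes glucose-6-phosphatase, through which glucose from glycogen leaves the hepatocyte, and was 16.9-fold higher with glucagon (adjusted p = 9.21e-05 with the block).

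Gys1, the glycogen synthase isoform of muscle and most other tissues, was also higher with glucagon on every pair of matched arrays. Its signal was 7.22 and 8.06 in experiments 1 and 2 with both agents and 7.34 and 8.20 with glucagon, against 5.81 and 6.88 with GW4064 and 6.08 and 7.20 with DMSO. The difference was 1.21 (2.32-fold, SE 0.09, adjusted p = 0.00134 with the block, and SE 0.38, adjusted p = 0.20 without it). It passed with the block in both single comparisons of glucagon too, with 1.13 against DMSO (adjusted p = 0.0144) and 1.30 in the presence of GW4064 (adjusted p = 0.0106). Like Gys2, it was higher in experiment 2 (0.97, adjusted p = 0.00536). Pygm, Ppp1r3a and Phkg1, the muscle phosphorylase and its muscle regulators, were below the filter. Phka1, the muscle form of Phka2, differed by 0.07 and did not pass.

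Pygb, the brain phosphorylase isoform, averaged 5.78 with glucagon and 5.31 without (0.47, adjusted p = 0.0382 with the block and 0.304 without). Gckr averaged 8.27 and 7.59 (0.69, adjusted p = 0.0104 and 0.223). Of the 2 that fell, Stbd1 encodes a glycogen-binding protein that hands glycogen to lysosomes, and averaged 7.23 with glucagon and 7.98 without (-0.75, adjusted p = 0.0372 and 0.08). Pgm2, of the phosphoglucomutase family, averaged 8.25 and 8.65 (-0.40, adjusted p = 0.0349 and 0.0776). The phosphatase 1 catalytic subunits Ppp1ca (0.02), Ppp1cb (0.23) and Ppp1cc (0.04) did not pass with or without the block, nor did glycogenin Gyg (0.16) or the lysosomal glucosidase Gaa (0.22). With all 8 arrays, none of the 13845 genes tested passed in a comparison of GW4064 by limma, with or without the block, and so none of the 25 did.

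**Figure D4:**
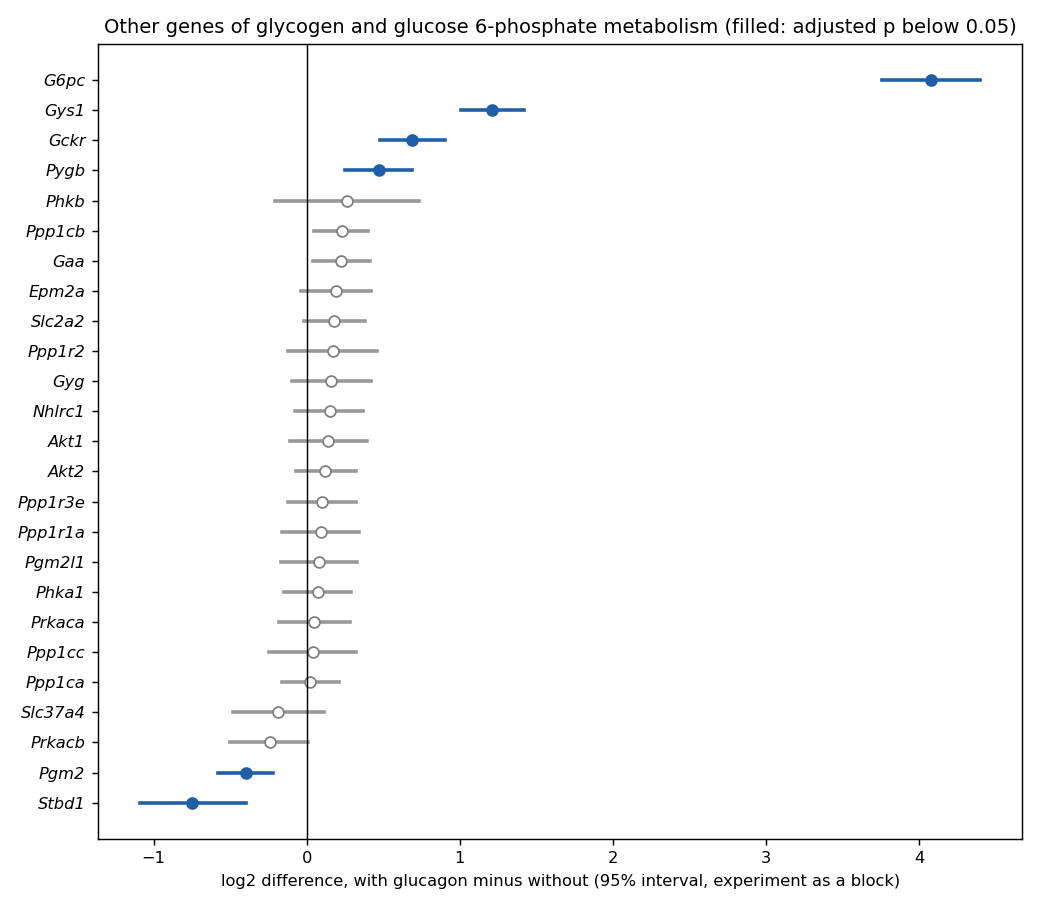
Log2 difference with glucagon minus without it (horizontal axis, 95% interval, experiment as a block) for the 25 other tested genes of the pathway, in order of the difference. Filled symbols have an adjusted p below 0.05. G6pc, Gys1, Gckr and Pygb lie to the right, and Pgm2 and Stbd1 to the left.

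Between the pools, Slc37a4, the glucose 6-phosphate carrier of the endoplasmic reticulum, was 2.01-fold higher in experiment 2 (1.01, adjusted p = 0.0132) and the glucose transporter gene Slc2a2 1.58-fold higher (0.66, adjusted p = 0.0135). Gckr was lower (-0.55, adjusted p = 0.0235). With Gys1, 3 of the 25 were higher and 1 lower, against 366 higher and 349 lower of all 13845 genes. The median was -0.04 for the 25 and -0.02 for all genes.

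The patterns most like those of the members were sought among all 13845 genes by Pearson's r of the log2 signal over the 8 arrays, which share 2 cell pools. For Ppp1r3c, the member with the smallest p for glucagon without the block, the 5 nearest were Slmap (0.994), the sterol synthesis enzyme Nsdhl (0.980), Vwce (0.980), the peroxisomal enzyme Ehhadh (0.976) and Wdr7 (0.976). All 5 had higher means with glucagon, by 0.40 to 0.86. For Gys2, the member with the smallest p between the pools, they were Dnase2b (0.988), Selenbp1 (0.987), the acute phase gene Crp (0.982), Rhoq (0.981) and Nudt13 (0.979). All 5 had higher means in experiment 2, by 0.40 to 0.85, and with glucagon, by 0.15 to 0.42. Picked for following Gys2 over the same arrays, they are no separate result either.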

How the data were processed

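The deposited values are log2 signals per probe set, a scale read from the values, and were taken without further change. Per the series design text the authors made them in GeneSpring. The sources used here do not give its version, background correction, summarisation or normalization. By the same text, 2 technical replicates were pooled per sample. Array medians were 3.42 to 3.57, and precision is limited by the small number of arrays.

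Probe sets were named from the platform annotation, and only those with 1 symbol were tested. To be kept, a probe set had to lie above an array's 40th percentile on 2 or more arrays, and the brightest per gene was used. The tests were those of limma 3.58.1 (R 4.3.3), with 1 mean per treatment over all 8 arrays, empirical Bayes moderation and two-sided p-values with Benjamini-Hochberg adjustment across the 13845 genes tested, at a threshold of 0.05. This model has 4 residual degrees of freedom. The model with the experiment as a block has 3, and the difference between experiments comes from it. The series design text says that each experiment was run on its own pooled cells. That 1 pool was split over the 4 treatments is the reading used here. The titles give each treatment an array in both experiments, so same-numbered arrays were taken as paired. Their deviations from the treatment means correlated at r = 0.350 to 0.620 over the 6 pairs of treatments. The fits were checked on simulated data.

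The members, gene lists, tests and alternatives were chosen with earlier results of these data known. All members were named, and other pathway genes where they passed in any comparison or had one of the 4 smallest p-values for glucagon. A few further ones were named with their values known. Alternatives were the block (fixed or random), other filters, quantile normalization, median centring, the mean of probe sets, an intensity trend, only the groups compared, and leaving out each array. Combinations of the block with these were added after seeing the data.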

Additional observations from a re-analysis of the deposited data

Results flagged for a closer look

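Phkg2, the catalytic subunit of phosphorylase kinase, stood out because its GW4064 differences had one sign in each experiment and opposite signs between them. In experiment 2 they were -0.60 against DMSO and -0.04 in the presence of glucagon, and in experiment 1 they were 0.18 and 0.12. The mean of experiment 2 minus that of experiment 1 was -0.47, and this difference was not tested. The value of -0.60 comes from the GW4064 array that stood apart from the others.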

How the results depend on the processing

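The replicate block, with the experiment as a fixed term, gave 3 members called for glucagon averaged over GW4064, where the model without it gave 0. The same 3 passed with the block and no filter, or with the block and quantile normalization. The block gave 4 with the stricter filter, with an intensity trend or without the GW4064 array of experiment 2 (Ugp2 added; 1003, 1116 and 1454 of all genes called, against 797 with the block alone), 2 with array medians centred (Ppp1r3c lost; 554 of all genes) and 2 with the mean of probe sets (Ppp1r3b lost; 777). With 1 array left out at a time it gave 0 to 4, and 113 to 2379 of all genes. The cause of this spread was not tested. As a random block, and under every alternative without the block, 0 members were called. Over 31 settings the difference ran from 0.19 to 0.99 for Gys2, 0.34 to 0.92 for Ppp1r3b, 0.44 to 0.71 for Ppp1r3c, 0.17 to 0.60 for Ugp2 and 0.03 to 0.50 for Pygl. The ends of these ranges come from fits without the block and with 1 array left out. In such fits the offset between the pools enters the difference. Between the experiments 3 members were called, 0 to 3 with 1 array left out, and 4 with the stricter filter, quantile normalization or an intensity trend (Pygl added). In the other 7 comparisons 0 members were called under every alternative run, and the block changed no other call. No value that passed in its comparison changed sign under an alternative. Values that did not pass changed sign in all 9 comparisons, most often for the interaction, with 33 of 153. Quantile normalization and median centring moved the median of all genes by at most 0.074. Ppp1r3g, below the filter level on all 8 arrays, could not be tested.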
